A study of Mus musculus with 8 samples.

Results

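The citric acid cycle and the routes by which pyruvate enters it were followed through 31 genes, chosen by symbol from a list of enzymes and carriers. All 31 had a transcript cluster of their own on the array, of 21160 genes with one, and 30 of the 31 were among the 12713 genes tested. The cells were naive CD8+ T cells of female mice, stimulated in vitro and kept for 48 h with an agonist of PPARα, an agonist of PPARβ, an agonist of PPARγ, or DMSO, the solvent control. PPARs are nuclear receptors that bind fatty acid derivatives and act on genes of lipid use. The labels place every sample at day 2. The compounds, their doses, the mouse strain, the ages of the animals and the way the cells were stimulated are not stated in the labels.

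RNA was measured on Clariom S Mouse arrays, 1 array per sample, with 2 arrays in each of the 4 groups. The sample titles begin with 1 of 2 prefixes, and every group has 1 array of each. Arrays with a common prefix, 4 in number, are called a culture set here, since the labels do not say what a prefix marks. Separate animals or cultures for the 2 arrays of a group are not stated in the labels. The p-values therefore measure the spread between these arrays alone, and that spread may be technical. Array medians lay between 5.64 and 5.72 log2 units. All 7 genes of the CD8 T cell list, Cd8a, Cd8b1, Cd3d, Cd3e, Cd3g, Cd2 and Cd5, were above the filter. Their means over the 8 arrays were 14.02 to 17.19 log2 units. Their summed level, as the mean over the list, lay between 15.52 and 15.68 on every array. CD4 T cells also express the Cd3 genes, Cd2 and Cd5, so the level of the list does not tell them from CD8 T cells. In RNA from a whole culture, fewer cells of a type and less RNA per cell cannot be told apart.

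Pyruvate made by glycolysis crosses the inner mitochondrial membrane through a carrier and is turned into acetyl-CoA by the pyruvate dehydrogenase complex, or into oxaloacetate by pyruvate carboxylase. Citrate synthase joins acetyl-CoA to oxaloacetate, and the cycle then returns to oxaloacetate through isocitrate, 2-oxoglutarate, succinate, fumarate and malate. Activated T cells are known to export part of the citrate to the cytosol, where ATP citrate lyase splits it to acetyl-CoA for lipid synthesis and histone acetylation, and to use malate and aspartate shuttles to carry electrons between the compartments.

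No member was called with any agonist. At an adjusted p under 0.05 (limma, Benjamini-Hochberg over the 12713 genes), 0 of 30 members were called in each of the 3 comparisons with DMSO, both without the culture set as a block and with it. Of all genes tested, 0% were called with the PPARα agonist in either fit, 0.00787% without the block and 0.0236% with it for the PPARβ agonist, and 0% in either fit for the PPARγ agonist. The smallest adjusted p of a member was at least 0.9999 in each comparison without the block, and with it 0.986 for PPARα, 0.869 for PPARβ and 0.827 for PPARγ. The 3 comparisons share the 2 DMSO arrays, so their values are not independent of one another.

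At an unadjusted p under 0.05, 0 members passed without the block in any comparison, against 1.77% of all genes for PPARα, 2.35% for PPARβ and 2.2% for PPARγ. With the block, Slc25a10 passed for the PPARα agonist (1 of 30 members, against 4.85% of all genes), and 0 members passed for PPARβ or PPARγ, against 6.14% and 5.87% of all genes. These shares of members were at or below the share among all genes.

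The 95% intervals show how large a change these arrays leave possible, given the spread between them. That spread may be technical, so the intervals do not bound a change between animals or cultures. They are per gene and not adjusted for the number of genes. With the culture set as a block, the 95% interval of the log2 change lay within -1 and 1, a 2-fold difference either way, for 30 of 30 members with the PPARα agonist, 30 of 30 with the PPARβ agonist and 29 of 30 with the PPARγ agonist. The exception was Pcx, pyruvate carboxylase, whose interval with the PPARγ agonist was -1.01 to 0.54 and whose signal was near the filter. Without the block the counts were 27, 25 and 28 of 30. The median interval reached 0.36 log2 units to either side of the change with the block and 0.47 without it, so smaller changes were not resolved.

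**Figure D1:**
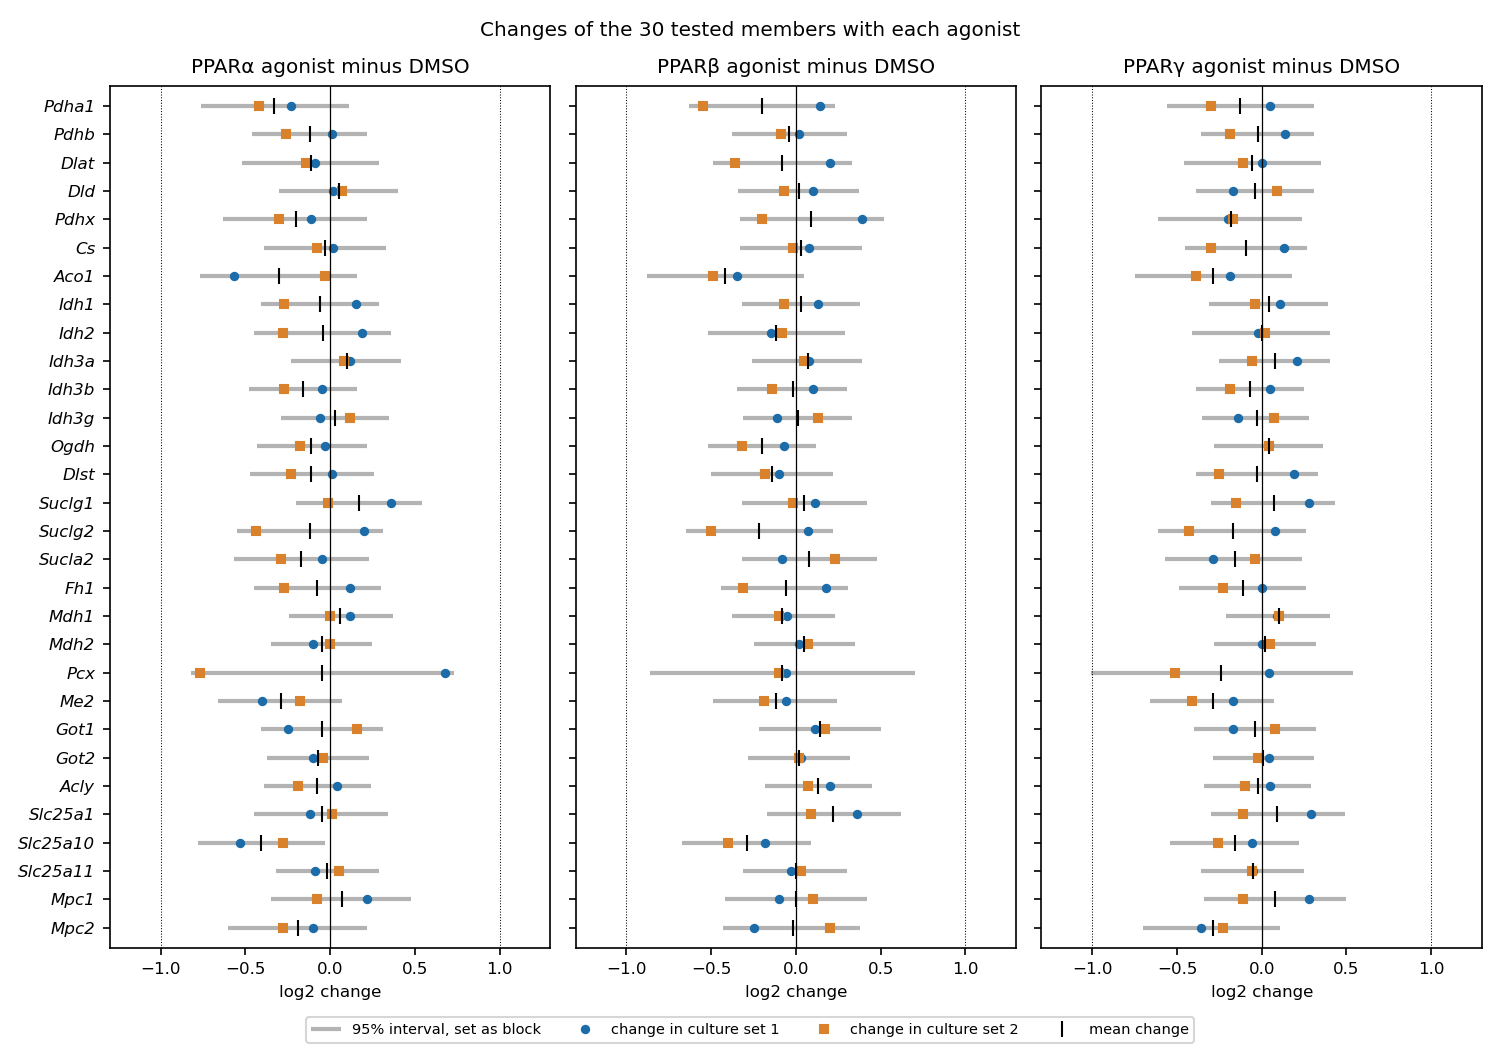
Log2 change of each of the 30 tested members with each agonist relative to DMSO (x axis, 1 panel per agonist); circles are culture set 1, squares culture set 2, ticks their mean and grey bars the 95% interval with the set as a block. Dotted lines mark a 2-fold difference; every bar but that of Slc25a10 with the PPARα agonist holds 0, and only that of Pcx with the PPARγ agonist reaches past a dotted line.

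The median log2 change over the 30 members was -0.07 with the PPARα agonist, beside -0.02 over all genes tested. Below 0 were 24 of the 30 members, a larger share than the 6885 of the 12713 genes. With the PPARβ agonist the medians were -0.01 for the members and -0.01 for all genes. There 14 members were above 0 and 16 below, beside 6676 of the 12713 genes below. With the PPARγ agonist the medians were -0.04 and -0.01. Below 0 were 21 of the 30 members, again a larger share than the 6634 of the 12713 genes. Members measured on the same arrays are not independent, and these medians and counts were not tested. With 1 array left out, the median was -0.14 to -0.03 for PPARα, -0.05 to 0.01 for PPARβ and -0.08 to -0.01 for PPARγ, and that for PPARα was -0.14 without the DMSO array of set 1 and -0.03 without the PPARα array of set 2. The direction often differed between the culture sets: 15, 14 and 9 of the 30 members had the same sign in both sets with the PPARα, PPARβ and PPARγ agonist, which is 50%, 46.7% and 30%, beside 53.5%, 50.4% and 51.1% of all genes. With the PPARα agonist, for example, the median change was -0.04 in set 1 and -0.18 in set 2.

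A change of at least 0.3 log2 units in the same direction in both sets was found in 1 member, Aco1, which was lower with the PPARβ agonist. Among all genes, 2.71% were higher and 2.78% lower by that rule for PPARβ, so 1 of 30 is near the background. For PPARα it was met by 0 members, beside 2.43% of all genes higher and 2.36% lower. For PPARγ it was also met by 0 members, beside 2.69% higher and 2.6% lower.

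At the entry of pyruvate, the 2 subunits of the mitochondrial pyruvate carrier were Mpc1 and Mpc2. Mpc2 had log2 values of 7.86 and 7.98 with the PPARγ agonist in sets 1 and 2, against 8.23 and 8.21 with DMSO. With the PPARα agonist it had 8.13 and 7.93, and with the PPARβ agonist 7.98 and 8.41. Both PPARγ arrays and both PPARα arrays were thus below both DMSO arrays, whereas the PPARβ arrays lay on either side of them. Mpc2 was named for its PPARγ change of the same sign in both sets, so this separation is no further support. The comparisons share the DMSO arrays, and the share of all genes with such a separation was not counted. The PPARγ change was -0.29 (0.815 times the DMSO level), with a 95% interval of -0.75 to 0.17 without the block and -0.70 to 0.11 with it (adjusted p = 0.843 in limma with the block). Mpc1, its partner, had mean changes of 0.07, 0.00 and 0.08 log2 units with the PPARα, PPARβ and PPARγ agonist, none of them called.

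The pyruvate dehydrogenase complex was followed through Pdha1 and Pdhb, the subunits of its first enzyme, Dlat, the acetyltransferase core, Dld, the dehydrogenase it shares with the 2-oxoglutarate complex, and Pdhx, which binds Dld to the core. The median change of these 5 genes was -0.12 for PPARα, -0.04 for PPARβ and -0.06 for PPARγ. Pdha1, on chromosome X (mm10, 160122209 to 160138413, minus strand), had 10.02 and 10.31 log2 units with the PPARα agonist in sets 1 and 2, against 10.26 and 10.72 with DMSO. The PPARβ arrays gave 10.40 and 10.18 and the PPARγ arrays 10.30 and 10.42. It was lower with the PPARα agonist within each set, with changes of -0.23 and -0.42, yet the 2 groups overlapped. Pdha1 was named for a PPARα change of the same sign in both sets, so this shared direction is no further support. Its mean change was -0.33 (0.798 times the DMSO level; 95% interval -0.83 to 0.18; adjusted p = 0.9999 in limma). Pdhx gave the largest difference between 2 agonists among the members: 7.61 and 7.01 with the PPARβ agonist against 7.12 and 6.91 with the PPARα agonist, a mean difference of 0.29 with an interval of -0.23 to 0.82. Pdhb, Dlat and Dld had mean changes between -0.12 and 0.05 in all 3 comparisons with DMSO.

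The citrate to 2-oxoglutarate steps were held by Cs, the citrate synthase, Aco1, the cytosolic aconitase that also binds iron-responsive RNA elements when it lacks its iron-sulphur cluster, and 5 isocitrate dehydrogenase genes. Aco1 (chromosome 4, 40143081 to 40199009, plus strand, mm10) had 9.88 and 9.77 log2 units with the PPARβ agonist in sets 1 and 2, against 10.23 and 10.26 with DMSO. With the PPARα agonist it had 9.66 and 10.23, and the PPARγ arrays gave 10.04 and 9.87. The 2 DMSO arrays were nearly equal, both PPARβ arrays and both PPARγ arrays lay below them, and with the PPARα agonist only the array of set 1 was clearly lower. The mean change with the PPARβ agonist was -0.42 (0.748 times the DMSO level; SE 0.218; 95% interval -0.92 to 0.09), the lowest among the members, and its adjusted p in limma was 0.9999 without the block and 0.869 with it. The mean changes were -0.30 with the PPARα agonist and -0.29 with the PPARγ agonist. All 3 are set against the same 2 DMSO arrays, so the shared direction of the 3 changes is not independent. Aco1 was named for its PPARβ change in both sets, so the separation of those arrays from DMSO is no further support. Cs lay between 14.42 and 14.72 on all 8 arrays, and its mean changes were -0.03, 0.03 and -0.09 for PPARα, PPARβ and PPARγ. The isocitrate dehydrogenase genes, Idh1 (cytosolic, NADP-linked), Idh2 (mitochondrial, NADP-linked) and Idh3a, Idh3b and Idh3g (the subunits of the NAD-linked enzyme of the cycle), had mean changes between -0.16 and 0.10 in the 3 comparisons.

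The 2-oxoglutarate dehydrogenase and succinate-CoA ligase genes were Ogdh, the first enzyme of that complex, Dlst, its succinyltransferase, Suclg1, the shared ligase subunit, and Suclg2 and Sucla2, the subunits that give it preference for GDP or ADP. Their median change was -0.11, -0.14 and -0.03 with the PPARα, PPARβ and PPARγ agonist. Ogdh lay between 13.43 and 13.79 on the 8 arrays, and 72.4% of its variance (as sum of squares) lay between treatments. Such a share can be large without an effect of treatment, since the 4 groups have only 2 arrays each. The limma F-test of Ogdh gave an unadjusted p of 0.509 without the block and 0.369 with it. The mean change of Ogdh was -0.20 with the PPARβ agonist and 0.04 with the PPARγ agonist, with no call in any comparison. Fumarase (Fh1) and the malate dehydrogenases Mdh1 (cytosolic) and Mdh2 (mitochondrial, the form that closes the cycle) had mean changes between -0.11 and 0.10.

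Pyruvate carboxylase and the malic enzymes exchange carbon between pyruvate and the 4-carbon acids. Pcx had the widest spread of the members, between 4.70 and 5.86 log2 units on the 8 arrays, and its mean change with the PPARα agonist was -0.05, made of 0.68 in set 1 and -0.77 in set 2. Me1, the cytosolic NADP-linked malic enzyme, lay below the filter with values between 3.34 and 3.79 on the 8 arrays and was not tested. Me2, the mitochondrial malic enzyme, lies on chromosome 18 (73768719 to 73815446, minus strand, mm10). It had 11.39 and 11.87 with the PPARγ agonist in sets 1 and 2, against 11.57 and 12.28 with DMSO. The PPARα arrays gave 11.16 and 12.09 and the PPARβ arrays 11.51 and 12.09. Within each set the DMSO array was the highest of the 4, but the sets lay so far apart that the groups overlapped. Me2 was named for its PPARγ change of the same sign in both sets, so that direction is no further support. The comparisons share the DMSO arrays, and the share of all genes with this pattern was not counted. The change with the PPARγ agonist was -0.29 (95% interval -1.19 to 0.60, and -0.66 to 0.07 with the block; adjusted p = 0.827 with the block in limma), made of -0.17 in set 1 and -0.41 in set 2.

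The carriers and the lyase that move cycle intermediates out of mitochondria were Slc25a1, the citrate carrier, Slc25a10, the dicarboxylate carrier that exchanges malate and succinate for phosphate, Slc25a11, the 2-oxoglutarate and malate carrier, and Acly, the ATP citrate lyase. Slc25a10 (chromosome 11, 120491837 to 120501161, plus strand, mm10) had 8.22 and 7.93 log2 units with the PPARα agonist in sets 1 and 2, against 8.75 and 8.21 with DMSO. The PPARβ arrays gave 8.57 and 7.81 and the PPARγ arrays 8.69 and 7.95. In both sets every agonist array was below its DMSO array, although the groups overlapped across sets. Slc25a10 was named for its PPARα and PPARβ changes of the same sign in both sets, so those directions are no further support. The comparisons share the DMSO arrays, and the share of all genes with this pattern was not counted. The change was -0.41 with the PPARα agonist (0.755 times the DMSO level), with a 95% interval of -1.21 to 0.40 without the block and -0.78 to -0.03 with it. The unadjusted p was 0.276 without the block and 0.0394 with it, and the adjusted p was 0.9999 and 0.986. With the PPARβ agonist the change was -0.29 (interval -1.09 to 0.51), made of -0.18 in set 1 and -0.40 in set 2. Slc25a1 had 13.17 and 12.41 with the PPARβ agonist, against 12.81 and 12.33 with DMSO, which gave the highest mean change of a member for that agonist, 0.22, with an interval of -0.17 to 0.62 with the block. Acly and Slc25a11 had mean changes between -0.08 and 0.13.

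The aspartate aminotransferases Got1 (cytosolic) and Got2 (mitochondrial), which link oxaloacetate to aspartate in the malate-aspartate shuttle, had mean changes between -0.07 and 0.14. Got2 was the steadiest member, between 16.17 and 16.31 on all 8 arrays.

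Between agonists, 0 of 30 members were called for PPARβ against PPARα, PPARβ against PPARγ or PPARγ against PPARα, with or without the block, by limma. Of all genes, 0.00787% were called for PPARβ against PPARα and for PPARβ against PPARγ without the block, 0.0157% for either with it, and 0% for PPARγ against PPARα in both fits. At an unadjusted p under 0.05, 0 members passed in any of them, against 2.32%, 2.64% and 2.03% of all genes without the block and 5.9%, 7.06% and 5.72% with it, in that order. The mean difference was between -0.14 and 0.29 for PPARβ against PPARα, -0.24 and 0.27 for PPARβ against PPARγ, and -0.19 and 0.25 for PPARγ against PPARα. With the block, the interval lay within a 2-fold difference for all 30 members in each. In the limma F-test of any difference among the 4 groups, 0 members were called in either fit, against 0.00787% of all genes without the block and 0.0157% with it. At an unadjusted p under 0.05 it again gave 0 members in either fit, against 1.8% and 6.12% of all genes.

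Promoters were read for the motif that PPARs bind, a direct repeat of 2 units, AGGTCA, with 1 base between, and for the unit alone, on both strands of the 250 bases before each start (RefSeq, GRCm38.p6). Of the members, 29 matched 38 promoters, and Idh3a and Me2 had no entry. The unit was present in 6 of 38 member promoters (15.8%), beside 14% of all 32851 promoters, and the direct repeat in 0 of 38, beside 0.0335%. The unit lay upstream of Acly, Fh1, Got1, Got2, Mpc1 and Sucla2. A match is a description of letters and not evidence of binding, and 0 of these 6 genes were called with an agonist. Those of Got1, the member that differed most between the culture sets, and of Acly, in which the unit lay nearer to the start, are shown 5′ to 3′ on the strand of the gene, with the unit in capitals, which begins at position -244 in Got1 and -40 in Acly, counted back from -1 at the base before the start. The Got1 stretch is chr19:43524606-43524855 (minus strand) and the Acly stretch chr11:100528001-100528250 (minus strand).
Got1: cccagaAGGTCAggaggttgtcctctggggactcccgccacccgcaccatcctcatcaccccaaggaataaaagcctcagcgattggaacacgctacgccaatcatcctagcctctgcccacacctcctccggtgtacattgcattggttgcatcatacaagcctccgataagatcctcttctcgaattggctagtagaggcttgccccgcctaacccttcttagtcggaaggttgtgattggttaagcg
Acly: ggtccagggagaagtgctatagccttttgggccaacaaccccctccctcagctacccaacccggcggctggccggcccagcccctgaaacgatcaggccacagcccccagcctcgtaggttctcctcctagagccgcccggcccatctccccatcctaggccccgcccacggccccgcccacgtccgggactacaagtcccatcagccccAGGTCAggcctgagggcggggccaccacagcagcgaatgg

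The culture set held over 50% of the variance across the 8 arrays in 12 of 30 members (40%, beside 31.3% of all genes tested), and the treatment in 3, beside 3243 of the 12713 genes. Treatment has more degrees of freedom than the set, so the shares of set and treatment are not on the same footing. With treatment kept in the fit, 7 of 30 members were called between the sets (23.3%, limma, adjusted p under 0.05), 4 of them higher in set 1 and 3 lower, beside 9.71% of all genes higher and 7.21% lower. The share of members was near the share of all genes and is not a result about the members. Got1, Slc25a1, Slc25a10 and Idh3a were higher in set 1, and Me2, Idh1 and Mdh1 were lower. Each of the 7 differed in the same direction in all 4 treatments, as did Mdh2, Slc25a11, Acly, Dlst and Idh3b, which were not called. The 7 were picked by their difference between the sets. A shared direction, or sets without overlap, in the genes below is therefore no further support. What a title prefix marks was not given in the labels, so these differences belong to no labelled condition.

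Got1 (chromosome 19, 43499752 to 43524605, minus strand, mm10) averaged 12.14 ± 0.16 log2 units in set 1 and 11.41 ± 0.08 in set 2 (SD, n = 4 each). The lowest set 1 array, 11.96 with the PPARα agonist, was above the highest set 2 array, 11.48 with the PPARβ agonist. The difference was 0.72 (1.65-fold; 95% interval 0.47 to 0.98; limma adjusted p = 0.00677). Its mitochondrial counterpart Got2 differed by 0.01, with an interval of -0.20 to 0.22.

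Idh3a averaged 14.13 ± 0.09 in set 1 and 13.63 ± 0.06 in set 2 (SD, n = 4 each), a difference of 0.49 with an interval of 0.26 to 0.72 (limma adjusted p = 0.0163). The other two subunits of the same enzyme differed by -0.15 (Idh3b, interval -0.38 to 0.07) and 0.04 (Idh3g, interval -0.19 to 0.26). The interval of Idh3a did not overlap that of Idh3b and met that of Idh3g at 0.26, and the difference between the subunits was not tested.

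Slc25a1 averaged 12.95 ± 0.23 in set 1 and 12.32 ± 0.08 in set 2, a difference of 0.62 (interval 0.34 to 0.90; limma adjusted p = 0.0145; SD, n = 4 each). The lowest set 1 array was 12.69 and the highest set 2 array 12.41. Slc25a10 averaged 8.56 ± 0.24 in set 1 and 7.98 ± 0.17 in set 2, a difference of 0.58 (interval 0.31 to 0.85; adjusted p = 0.0163). Both are carriers that exchange cycle intermediates across the inner membrane, and the 2-oxoglutarate carrier of the list, Slc25a11, differed by -0.21 (interval -0.43 to 0.00).

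Me2 averaged 11.41 ± 0.18 in set 1 and 12.08 ± 0.17 in set 2, a difference of -0.67 (0.627-fold; interval -0.93 to -0.42; limma adjusted p = 0.00883; SD, n = 4 each). The highest set 1 array, 11.57 with DMSO, was below the lowest set 2 array, 11.87 with the PPARγ agonist. Idh1 lay between 9.05 and 9.20 in set 1 and between 9.44 and 9.71 in set 2, a difference of -0.47 (interval -0.72 to -0.22; limma adjusted p = 0.0255). Mdh1 lay between 13.72 and 13.89 in set 1 and between 14.06 and 14.27 in set 2, a difference of -0.36 (interval -0.57 to -0.14; limma adjusted p = 0.0387). Neither gene had overlapping sets. Idh1 and Mdh1 are the cytosolic forms, and the mitochondrial forms Idh2 and Mdh2 differed by -0.25 (interval -0.54 to 0.04) and 0.22 (interval 0.01 to 0.44), with adjusted p of 0.204 and 0.134. 

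Got1 and Me2 kept their calls in every fit that left out 1 array, at 0.66 to 0.80 and -0.74 to -0.59. The other 5 kept their direction but lost the call in some of these fits, which also have fewer degrees of freedom. Leaving out either array of a treatment gave the same difference. Slc25a1 was at 0.58 without a PPARβ array and 0.53 without a PPARγ array. Slc25a10 was at 0.52 without a PPARβ array, 0.53 without a PPARγ array and 0.59 without a DMSO array. Both are carriers of the inner membrane. Idh3a was at 0.51 without a PPARα array, 0.43 without a PPARγ array and 0.52 without a DMSO array. Idh1 was at -0.47 without a PPARβ array, -0.46 without a PPARγ array and -0.41 without a DMSO array. Mdh1 lost its call without any 1 of the 8 arrays, at -0.38 to -0.34.

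The 2 tested genes of the CD4 T cell list moved with the sets. Among CD4 T cell markers, Cd4 was 0.82 higher and Cd40lg 0.70 higher in set 1, both called, and the third marker, Foxp3, shared a cluster and was not used. The mean over the list was 7.46 to 7.71 in set 1 and 6.53 to 7.22 in set 2. Of the NK cell list, Ncr1 and Klrb1c were below the filter, Klrb1c was lower in set 1 in all 4 treatments, and Eomes, which activated CD8 T cells also express, was 0.45 higher in set 1 and called. For the B cell, monocyte and macrophage, dendritic cell, neutrophil and mast cell, and erythroid lists, 0 tested markers were called. Their differences lay between -0.32 (Siglech) and 0.30 (Cd79b). Few markers were tested there: 1 of 5, 2 of 6, 1 of 5, 3 of 6 and 1 of 4, in that order. The 7 genes of the CD8 T cell list were not called between the sets, with differences between -0.28 and 0.26. Of these, Cd8a differed by -0.10 and Cd8b1 by -0.15. The part of other cells in the differences of the members was not tested.

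**Figure D2:**
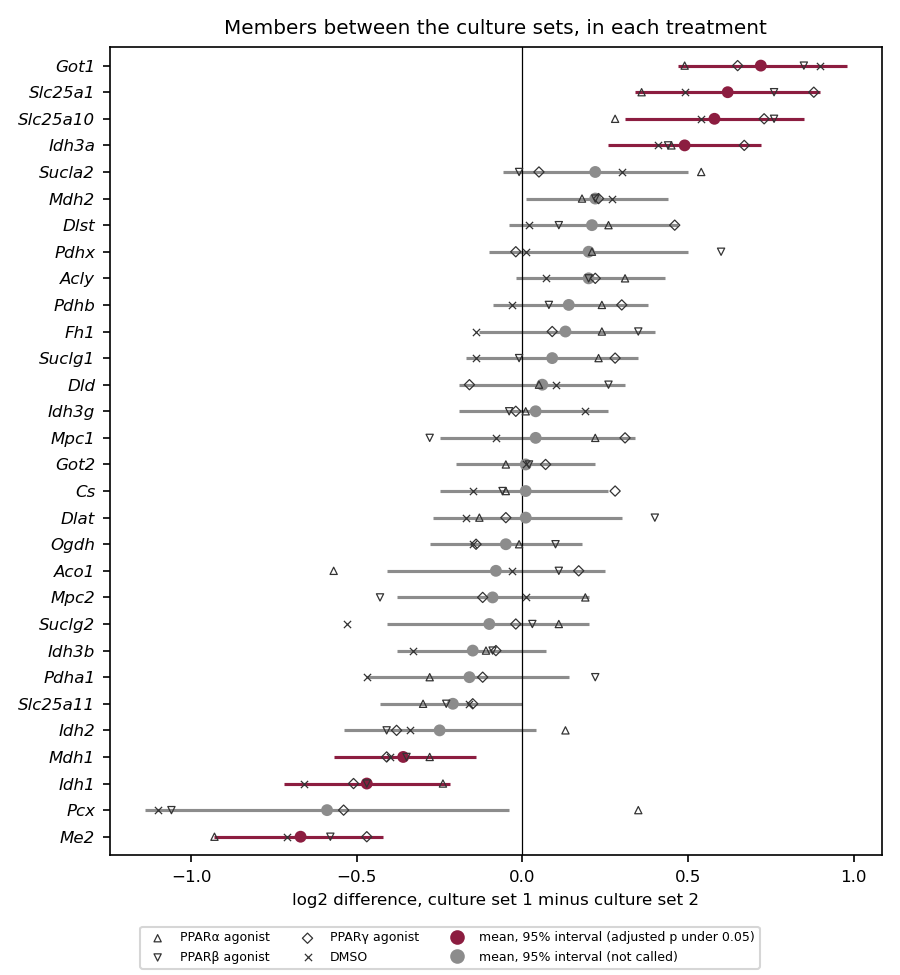
Log2 difference between culture set 1 and culture set 2 (x axis) for the 30 tested members, as the mean with its 95% interval, with small marks for the difference in each of the 4 treatments. The 7 called members lie at the ends, from Got1 at 0.72 to Me2 at -0.67, with Pcx at -0.59 among them, which was not called (adjusted p = 0.13 in limma).

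**Figure D3:**
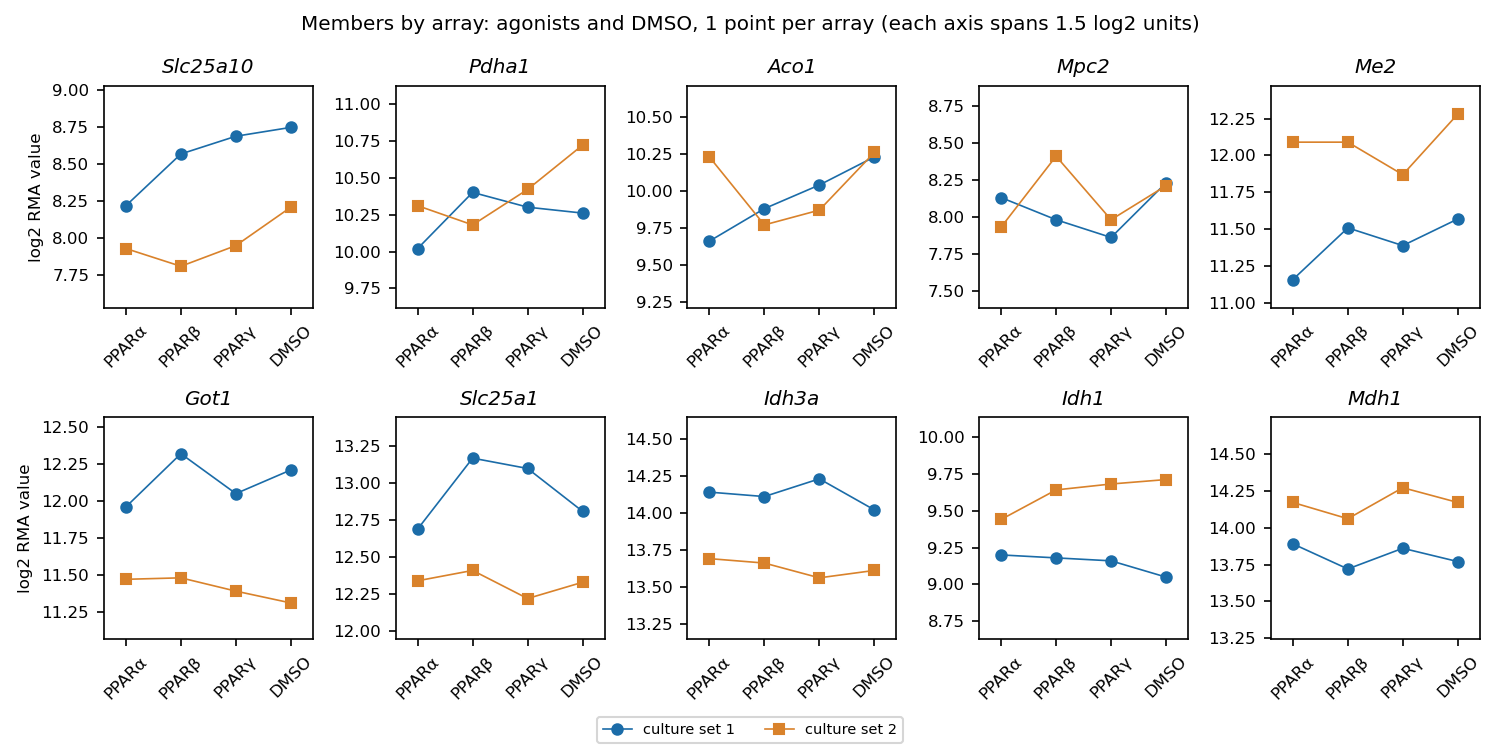
Log2 RMA values on all 8 arrays (y axis, 1 point per array) of the 10 members described in full, by treatment (x axis), with the culture sets joined by lines. The sets do not overlap for the 7 members called between them, which were picked by that difference, and they cross for Pdha1, Aco1 and Mpc2.

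Over all 30 members, the culture set held a median of 39.6% of the variance over the 8 arrays and the treatment 16.5%, beside 26.4% and 29.9% over all genes tested. These are shares of a sum of squares in which treatment has more degrees of freedom than the set. The highest shares for the set were those of Idh3a (93.7%), Got1 (91.4%), Slc25a11 (89.5%), Mdh2 (88.8%) and Idh1 (88.3%). For treatment they were those of Got2 (72.8%), Ogdh (72.4%) and Aco1 (51.2%), the first of which varied little in all. The limma F-test without the block gave these genes an unadjusted p of 0.933, 0.509 and 0.332, in that order. Within a set, the range over the 4 treatments had a median of 0.352 log2 units for the members, beside 0.48 for all genes, and it was under 0.5 for 24 of 30 members (80%) and 53.3% of all genes. The members' mean log2 values had a median of 12.1, beside 9.1 for all genes, and the part of signal level in the spread was not tested.

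Neighbouring genes of the pathway were read from 6 further lists, and 0 of their tested genes were called in either direction with any agonist in either fit. At an unadjusted p under 0.05 with the block, 0 to 2 genes of a list passed in a comparison. Among kinases and phosphatases that switch pyruvate dehydrogenase off and on (6 tested), Pdp2, a phosphatase that turns it on, had in sets 1 and 2, by log2 value, 6.27 and 5.53 on the PPARα arrays, 6.02 and 6.05 on the PPARβ arrays and 6.11 and 5.89 on the PPARγ arrays, against 6.67 and 6.45 with DMSO. Every agonist array was below both DMSO arrays. Pdp2 was named for the largest mean change of its list with the same sign in both sets, so this separation is no further support. The share of all genes with such a separation was not counted. Pdp1, the other phosphatase of the list, was above DMSO in set 1 and below it in set 2 with each agonist. The changes of Pdp2 were -0.66, -0.52 and -0.56, with adjusted p of 0.986, 0.796 and 0.804 in limma with the block, and they share the DMSO arrays.

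In the remaining lists, changes differed in sign and size between genes. Slc25a20, the mitochondrial carnitine carrier, had a mean change of 1.02 with the PPARβ agonist (interval 0.23 to 1.81; limma adjusted p = 0.9999 without the block, 0.584 with it). It was made of 1.20 in set 1 and 0.84 in set 2. Slc25a20 was named for the largest such change of its list, so the shared direction is no further support. Crat, the carnitine acetyltransferase, had a signal near the filter. Its mean change was -0.41 with the PPARα agonist and -0.50 with the PPARγ agonist. Gpt, an alanine aminotransferase, had changes of 0.52 with the PPARβ agonist and 0.58 with the PPARγ agonist. Its DMSO arrays, at 4.67 and 4.75, lay below the filter of 4.888, and every agonist array lay above it. Gpt thus passed the filter through the agonist arrays, and its rise is no further support. Pcca, a subunit of propionyl-CoA carboxylase, had -0.58 with the PPARβ agonist. Lipt2, a lipoyl transferase, had -0.39 with the PPARβ agonist and -0.36 with the PPARγ agonist, and Sdhaf3, a succinate dehydrogenase assembly factor, had -0.43 with the PPARγ agonist. None of these values passed at an adjusted p under 0.05.

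Between the sets, 5 of the 10 tested genes of glutamine entry to the cycle were called, all higher in set 1, beside 9.71% of all genes. Of the other lists, 2 of 6 kinases and phosphatases, 2 of 7 succinate dehydrogenase genes, 2 of 9 other cycle and anaplerosis genes, 2 of 10 lipoylation genes and 1 of 11 acetyl-CoA and lactate genes were called in either direction, beside 16.9% of all genes. Among the glutamine entry genes, the 3 with the largest log2 differences were Slc25a22, a mitochondrial glutamate carrier (1.25), Slc1a5, a glutamine transporter (0.91), and Psat1, a serine synthesis aminotransferase that makes 2-oxoglutarate (0.49). Slc25a22 averaged 8.98 ± 0.28 log2 units in set 1 and 7.73 ± 0.25 in set 2 (SD, n = 4 each), and Slc1a5 had 13.94 to 14.05 in set 1 and 12.98 to 13.32 in set 2. Pdk1, a kinase that switches pyruvate dehydrogenase off, was lower in set 1 (log2 difference -0.91).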

How the data were processed

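Per the labels, biotin-labelled DNA was made from 100 ng of total RNA and hybridised to Clariom S Mouse arrays. The authors deposited log2 values made by RMA, a method named in the submitters' processing notes with no version. RMA makes array distributions alike and so removes changes that most transcripts share. A linear intensity column deposited by the authors equalled the log2 column after conversion (largest difference 1.5e-06 log2) and was not tested. Array maxima were 19.01 to 19.16. Their scaling is not stated, and folds take the values as plain log2 units. Per the file headers, the annotation was release 36 on build mm10.

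Of 22206 transcript clusters, 21371 named 1 gene. Symbols were updated through a RefSeq gene table of GRCm38.p6 (20395 clusters matched by entrez ID, 899 updated, 0 members renamed). The cluster with the highest mean was kept per gene. Genes whose mean reached the 40th percentile (4.888 log2 units) were tested. A model of 4 group means (all 8 arrays) was fitted in limma 3.58.1, R 4.3.3 (4 residual and 3.756 prior degrees of freedom), two-sided. The culture set was a replicate block in a second fit (3 residual, 4.266 prior), because samples with the same prefix deviated together (r = 0.495 to 0.550 in all 6 pairs of groups, over 12713 genes). The number of arrays limits the precision. The difference between sets came from an additive fit with treatment. The steps were tested on simulated data. Python 3.11.15 with pandas 2.3.3 and matplotlib 3.10.9 made the tables and plots.

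The members and lists were chosen with earlier results of these data known. Values per array are given for members called in any comparison, and for each agonist up to 4 members with at least 0.3 log2 units in the same direction in both sets, filled to 2 by the largest changes of the same sign. For the difference between sets, up to 4 called members are given per direction, and for other lists up to 3 genes. The values of 1 gene of the other lists are not reported here.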

Additional observations from a re-analysis of the deposited data

How the results depend on the processing

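With 2 arrays a group, array number and signal over background limit what can be called. The members called between groups stayed at 0 in all alternatives run: the replicate block, no filter, a filter at the 60th percentile, median-centred arrays, only the groups compared, trend and robust variances, the deposited value matrix, and each array left out. The paired analysis (replicate block) changed no call of a member. Counts over all genes were small and moved. For PPARβ against DMSO, 1 gene was called, beside 3 with the replicate block, 0 with the 60th percentile filter, 0 with the 2 groups alone, 10 with block, trend and robust variances, and 0 to 1 with 1 array left out. For PPARβ against PPARα the values were 1, 2, 0, 0, 11 and 0 in the same order, and 0 to 0 with an array left out. For PPARβ against PPARγ there were 1, 2 with the replicate block, 0 with the filter, 11 with block and trend, and 0 to 2 with an array left out. The F-test called 1, then 2, 0 and 15 in these settings and 0 to 1 with an array left out. PPARγ against DMSO gave 0, and 2 with block, trend and robust variances. Between the sets 2150 genes were called, 1228 without a filter, 3239 with trend and robust variances, and 1050 to 1327 with 1 array left out. The members called there were 7, 5 without a filter (Idh1 and Mdh1 lost), 9 with trend and robust variances, and 2 to 6 with an array left out. With an array left out, the median change of the members was -0.01 to 0.06 for PPARβ against PPARα, -0.02 to 0.06 for PPARβ against PPARγ and -0.04 to 0.06 for PPARγ against PPARα, and against DMSO -0.14 to -0.03 for PPARα, -0.05 to 0.01 for PPARβ and -0.08 to -0.01 for PPARγ. Slc25a10 with the PPARβ agonist ranged over -0.67 to 0.09 and Me2 with the PPARγ agonist over -0.65 to 0.06. These fits set arrays of different culture sets against each other, and within each set both changes were below 0 (-0.18 and -0.40 for Slc25a10, -0.17 and -0.41 for Me2). The rule that named these genes requires the same sign in both sets, so this is no further support. The cause of these moves was not tested, beyond the fewer arrays or genes that a setting leaves.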
